A study of Homo sapiens with 240 samples.

Results

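The AMPK-dependent part of the phenformin response was taken as the difference between the change that phenformin made in AMPK KO cells and the change that it made in WT cells. For each gene and for each of 2, 4, 8 and 16 h it is (KO phenformin minus KO DMSO) minus (WT phenformin minus WT DMSO), on the log2(TPM + 1) scale. It rests on 30 of the 240 libraries of the series, which fall into 10 groups of 3. The KO arm has libraries of HEK 293T cells labelled AMPK Knock out under Phen at 2, 4, 8 and 16 h and under DMSO at 0 h. The WT arm has the same groups of HEK 293T cells labelled AMPK WT. HEK 293T is a human embryonic kidney line that carries the SV40 large T antigen. The medium of every group was DMEM supplemented with 10% serum (FBS), polyadenylated RNA was sequenced, and the labels give neither the dose of phenformin nor how many clones the KO arm stands for. The only DMSO libraries are those at 0 h, so that each change also carries the hours of culture and handling, which cannot be told apart from phenformin within an arm. The labels do not say that replicates came from separate cultures, and p-values measure the spread between libraries only.

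AMPK is a kinase that cells switch on when AMP and ADP build up against ATP. Its catalytic subunits are encoded by PRKAA1 and PRKAA2, and it slows synthesis of lipids and proteins while it favours catabolism and the turnover of organelles. Phenformin is a biguanide that inhibits complex I of the respiratory chain. A cell under phenformin therefore meets both AMPK signalling and AMPK-independent mitochondrial stress, the best known branch of which is the ATF4-centred stress response. Among the described AMPK substrates is FNIP1, the partner of folliculin in the machinery that keeps TFEB and TFE3, activators of lysosomal genes, out of the nucleus.

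The targeted genes were checked first. PRKAA1 lay between 2.16 and 3.66 TPM in the 15 KO libraries and between 6.27 and 9.31 TPM in the 15 WT libraries, with no overlap. PRKAA2 lay between 2.55 and 4.77 TPM in KO libraries and between 3.77 and 7.40 TPM in WT libraries, and those ranges overlap. Reads outside an edited stretch are still counted, so these levels do not test the loss of protein. Summed TPM ran from 396341 to 408660 per library, TPM keep no read depth, and the spread of 3 libraries is the only guide to precision. Of 8 genes that HEK 293T cells are known to express, 8 passed the filter on low values, against 1 of 9 mature kidney genes and 4 of 13 genes of other cell types, and UMOD and HBB were listed at 0 in all 4 sets of libraries. Of those 8, 3 were under 1 TPM in every KO phenformin library and 3 in every KO DMSO library. In WT cells that held for 0 of them under phenformin and 1 under DMSO. The filter asks for 3 libraries of the whole table, so a gene can pass it through WT libraries alone. Among the HEK 293T genes, 4 of 8 had a lower phenformin response in KO cells at 16 h, against 10.5% of all genes tested, and 2 of 8 under either other scaling. The summed TPM of the 8 lay between 358 and 480 in KO phenformin libraries, 387 and 448 in KO DMSO libraries, 303 and 472 in WT phenformin libraries and 309 and 339 in WT DMSO libraries, and their part in other results was not tested. Lower among them was VIM, a filament protein, with a difference of -0.40 ± 0.08. In bulk RNA, fewer cells of a kind and less RNA per cell cannot be told apart.

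Some libraries stood apart. In replicate 1 of DMSO the summed TPM of 73 histone genes was 806 in KO cells, against 208 and 270 in the other KO DMSO libraries, and 714 in WT cells, against 270 and 374 in the other WT DMSO libraries. Under phenformin that sum lay between 68.4 and 114 TPM in KO cells and between 71.5 and 188 TPM in WT cells. The largest root mean square deviation from a group mean was 0.166 (log2), in KO DMSO replicate 1. Separately, 3 WT libraries whose title code and treatment tag say phenformin at 2 h have a description that names 991, an AMPK activator. They were kept as phenformin by title and tag, and every 2 h result rests on them. Without them the count of genes that differed at any time, given next, was 2065.

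Phenformin changed most of the transcriptome in both arms. The part that differed between the arms was smaller and, with all libraries in the fit, counted more genes at each later time. At 16 h, 5604 genes rose and 5127 fell in KO cells, and 6163 rose and 4747 fell in WT cells, out of 13617 tested (limma, Benjamini-Hochberg adjusted p under 0.05). The response differed between the arms at 1 or more times in 2161 genes by a moderated F test, which is 15.9% of those tested. At 2 h the KO response was higher for 40 genes (0.294%) and lower for 127 (0.933%). At 4 h it was higher for 170 (1.25%) and lower for 293 (2.15%). At 8 h it was higher for 227 (1.67%) and lower for 384 (2.82%). At 16 h it was higher for 460 (3.38%) and lower for 1430 (10.5%), of which 24 and 106 differed by at least 1.5-fold. Without replicate 1 in all groups the counts in either direction were 988 at 2 h, 829 at 4 h, 982 at 8 h and 2715 at 16 h. The rise from 2 to 8 h was thus not seen in that setting.

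A difference between responses can arise in several ways, and they were counted. Of the 1430 genes with a lower KO response at 16 h, 738 went up in both arms, less in KO cells, 330 went down in both, and 360 went down in KO cells and up in WT cells. Of the 460 with a higher KO response, 304 went down in both arms, less in KO cells, 93 went up in both and 61 went up in KO cells and down in WT cells. These splits are by the sign of each change, whether or not it passed its own test. The starting level also enters. Among the 1430, KO cells lay above WT cells under DMSO in 704, and below them under phenformin in 1354. A KO minus WT difference under DMSO itself passed the test in 653 of them, and in 5299 of all 13617 genes tested.

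The balance of higher and lower calls depended on how libraries were scaled. At 16 h, median-ratio scaling gave 954 higher and 780 lower, and quantile normalization gave 682 and 854. At 2 h these gave 66 higher and 89 lower, and 45 and 59. Quantile normalization gave 197 higher and 222 lower at 4 h, and 306 and 311 at 8 h. The median difference of all genes under the deposited scaling was -0.03 at 2 h, -0.01 at 4 h, -0.02 at 8 h and -0.05 at 16 h, so small differences of either sign are to be read against that shift.

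Counts at the early times also rested on single libraries. The 2 h count of 167 was 379 without KO DMSO replicate 1, 70 without KO phenformin replicate 3 and 81 without WT DMSO replicate 1. It was between 92 and 109 without KO DMSO replicate 3, KO phenformin replicate 2, WT DMSO replicate 3 or WT phenformin replicate 2 or 3. The 4 h count of 463 was 833 without KO DMSO replicate 1, 229 without KO DMSO replicate 3 and 223 without KO phenformin replicate 2, and 204 without WT DMSO replicate 1 and 259 without WT phenformin replicate 1. The 8 h count of 611 was 1121 without KO DMSO replicate 1, 373 without KO DMSO replicate 2, 292 without KO DMSO replicate 3 and 265 without KO phenformin replicate 2. It was 301 without WT DMSO replicate 1 and 307 without WT phenformin replicate 1. The 16 h count of 1890 stayed between 1344 and 2722 with any of its 12 libraries left out. Without both replicate 1 DMSO libraries, a choice made after seeing the data, the counts were 99 at 2 h, 233 at 4 h, 461 at 8 h and 1746 at 16 h. A call is said to hold throughout where it passed under every alternative tried for that gene and time. Some genes were named as the most changed among those that kept their call without each replicate number. For them that part of holding throughout was set by the choice of genes.

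**Figure D1:**
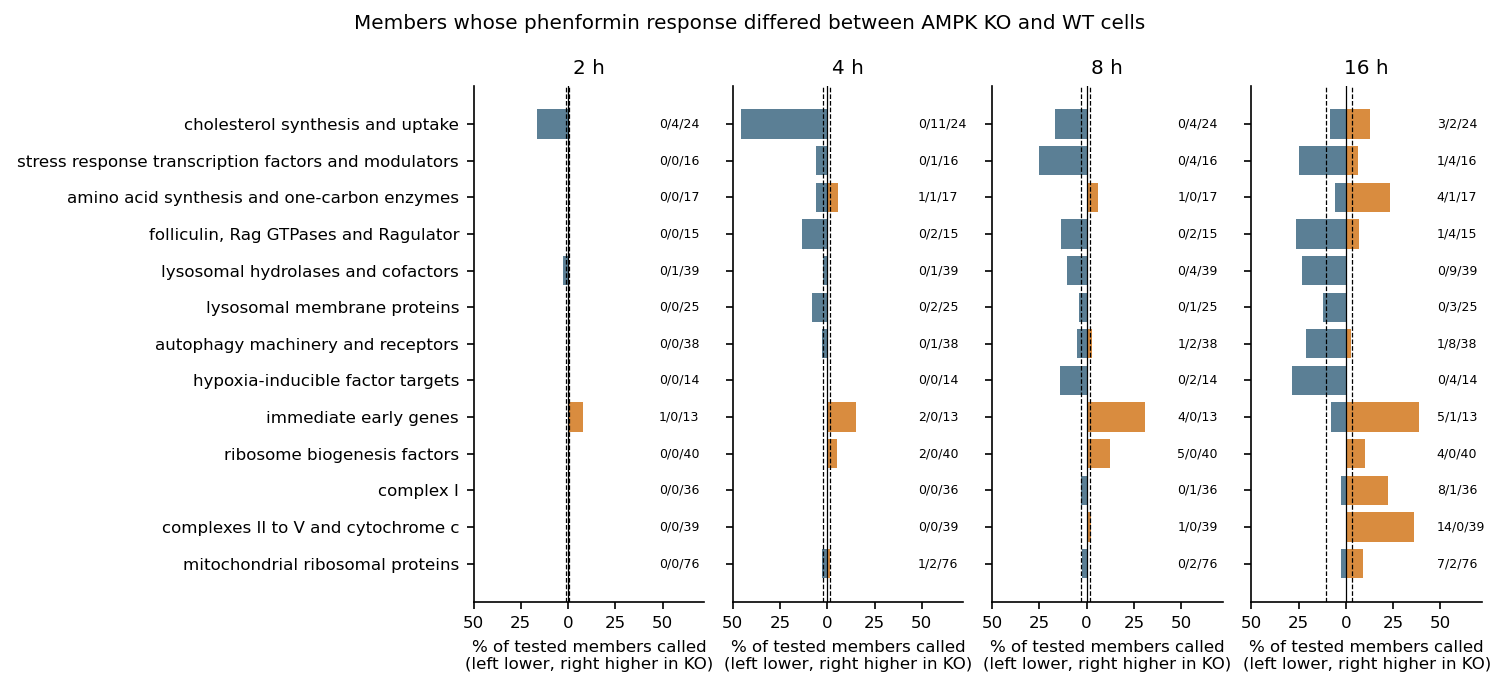
Share of the tested members of each gene list whose phenformin response was lower (bars to the left) or higher (bars to the right) in KO cells than in WT cells, at each time. Figures at the right of each panel give members called higher, called lower and tested, and dashed lines mark the share of all 13617 genes called in each direction. Cholesterol genes stand out at 4 h with 11 of 24 lower, and complexes II to V at 16 h with 14 of 39 higher.

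Of all lists, cholesterol synthesis and uptake had the most calls at 2 and 4 h. Its median change at 4 h was 0.16 (log2) in KO cells and 0.49 in WT cells. At 4 h, 11 of 24 tested members had a lower response in KO cells and 0 a higher one, with a median difference of -0.30 against -0.01 for all genes. All 24 differences were below 0. At 2 h the count was 4 lower and 0 higher, at 8 h again 4 and 0, and at 16 h it was 3 higher and 2 lower. Of all genes, 0.933% were lower at 2 h, 2.15% at 4 h, 2.82% at 8 h and 10.5% at 16 h. Higher were 0.294%, 1.25%, 1.67% and 3.38% at the same times. The lower count at 16 h was thus near the share of all genes. The 4 h count of 11 was 6 without KO DMSO replicate 3 or WT DMSO replicate 1, and 7 without KO DMSO replicate 2, KO phenformin replicate 1 or WT phenformin replicate 2, with 0 higher each time. Leaving out a replicate number in all groups gave 18, 4 and 3 for numbers 1, 2 and 3. The 2 h count of 4 was 7 without KO DMSO replicate 1. Without a replicate number in all groups it was 11, 2 and 0 for numbers 1, 2 and 3. The 8 h count was 1 without replicate 2 and 0 without replicate 3. The 8 h count of 4 was 1 without KO DMSO replicate 3 or WT DMSO replicate 1, and 2 without KO DMSO replicate 2 or KO phenformin replicate 2. At 16 h the 2 lower were 1 without KO DMSO replicate 3, KO phenformin replicate 2 or 3, WT DMSO replicate 2 or 3, or any WT phenformin library. These genes are known targets of SREBP2, a transcription factor that is held in the endoplasmic reticulum when sterols are plentiful.

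INSIG1, which encodes the protein that holds SREBP there and is itself an SREBP target, gave the largest of these differences. At 4 h it had 52.4, 52.6 and 54.97 TPM in KO phenformin libraries and 50.002, 63.6 and 65.6 TPM in KO DMSO libraries. In WT cells it had 119.8, 121 and 126 TPM under phenformin and 49.6, 58.5 and 55.8 TPM under DMSO. Phenformin libraries of KO cells overlapped their DMSO libraries, whereas all 3 WT phenformin libraries lay far above the other 3 groups. The log2 change was -0.15 in KO cells and 1.15 in WT cells, a difference of -1.30 ± 0.11 (SE, limma adjusted p = 2.2e-14, n = 3 per group). At 2 h both arms rose, KO cells to 80.4 ± 2.04 TPM and WT cells to 134 ± 9.56 TPM (SD, n = 3), with a difference of -0.85 ± 0.11. The difference was -0.62 ± 0.11 at 8 h and -0.48 ± 0.11 at 16 h. The 4 h call held throughout, those at 2 and 8 h were lost without replicate 3, and that at 16 h without replicate 2 or 3.

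The upstream sequence of INSIG1 is shown because its response separated the arms most among the sterol genes, and that of FNIP1 because it is the AMPK substrate of the folliculin machinery. Both are from RefSeq on GRCh38.p14, 250 bases that end just before the annotated start site and read 5′ to 3′ along the gene's strand, and capitals mark the matches found. The INSIG1 window is chr7:155297628-155297877 on the plus strand, and the FNIP1 window is chr5:131797018-131797267 on the minus strand.
INSIG1: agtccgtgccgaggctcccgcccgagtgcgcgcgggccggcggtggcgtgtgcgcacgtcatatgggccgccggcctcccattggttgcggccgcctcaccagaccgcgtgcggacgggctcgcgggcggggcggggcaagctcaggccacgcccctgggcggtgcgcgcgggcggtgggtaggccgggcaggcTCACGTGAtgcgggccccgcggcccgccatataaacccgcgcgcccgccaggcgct
FNIP1: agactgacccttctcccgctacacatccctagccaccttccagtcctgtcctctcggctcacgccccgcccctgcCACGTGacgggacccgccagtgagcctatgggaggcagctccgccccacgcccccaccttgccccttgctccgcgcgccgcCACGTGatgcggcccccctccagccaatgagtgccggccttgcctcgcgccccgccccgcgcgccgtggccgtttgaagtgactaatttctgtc

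A set of 4 short motifs was searched for on both strands of such windows, for 21 genes of which 16 have one in the RefSeq table. TCACGTGA, the coordinated lysosomal expression and regulation motif, is in 0.854% of 35116 promoters. CACGTG, the E-box that lies inside it, is in 6.34%. TCACNCCAC, a sterol regulatory element, is in 0.883%, and TTGCATCA, a composite ATF and C/EBP element, is in 0.772%. INSIG1 has TCACGTGA once, at position -56 from the start site, and no TCACNCCAC in these letters. FNIP1 has CACGTG at 2 places, and CEBPG has TTGCATCA once. The windows of FLCN, FNIP2, HMGCS1, MSMO1, IDI1, MVD, WIPI1, OPTN, SMPD1, TRIB3, DDIT3, DDIT4 and ATF5 hold none of the 4.

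Enzymes of the pathway with a lower response in KO cells at 4 h included MSMO1, HMGCS1 and IDI1. MSMO1, a sterol C4 demethylase, had 29.6, 26.5 and 29.4 TPM under phenformin at 4 h and 27.9, 31.6 and 32.8 TPM under DMSO in KO cells, against 44.4, 44.8 and 46.4 TPM under phenformin and 26.4, 30.9 and 29.8 TPM under DMSO in WT cells. All 3 WT phenformin libraries lay above the other 3 groups. Its 4 h difference was -0.73 ± 0.11 (limma adjusted p = 1.3e-05), and its call held throughout, which the rule that named it in part requires. HMGCS1, an enzyme of the early mevalonate pathway, differed by -1.06 ± 0.17 at 4 h. IDI1, an isomerase later in the pathway, had a log2 change of -0.56 in KO cells and 0.48 in WT cells, both past the test in opposite directions, a difference of -1.04 ± 0.21. The HMGCS1 call was lost without replicate 3, and the IDI1 call without replicate 2 or 3. For both genes DMSO replicate 1 was the lowest of its group in either arm, at 14.4 TPM of HMGCS1 in KO cells and 14.6 TPM in WT cells.

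In the neighbouring list of fatty acid synthesis, SREBF1, which encodes the SREBP1 factor, was higher at 16 h by 0.47 ± 0.11 and the desaturase gene FADS2 by 0.45 ± 0.12. Both rose in KO cells, and their WT changes of -0.06 and -0.02 did not pass the test. Both also started lower in KO cells, with a KO minus WT difference under DMSO of -0.24 ± 0.08 for SREBF1 and -1.06 ± 0.08 for FADS2 (log2). SCD and ACACB of this list were called at 16 h too and are not described here. Of all genes, 3.38% were called higher and 10.5% lower at that time. The SREBF1 call was lost without replicate 2, and that of FADS2 without replicate 2 or 3.

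**Figure D2:**
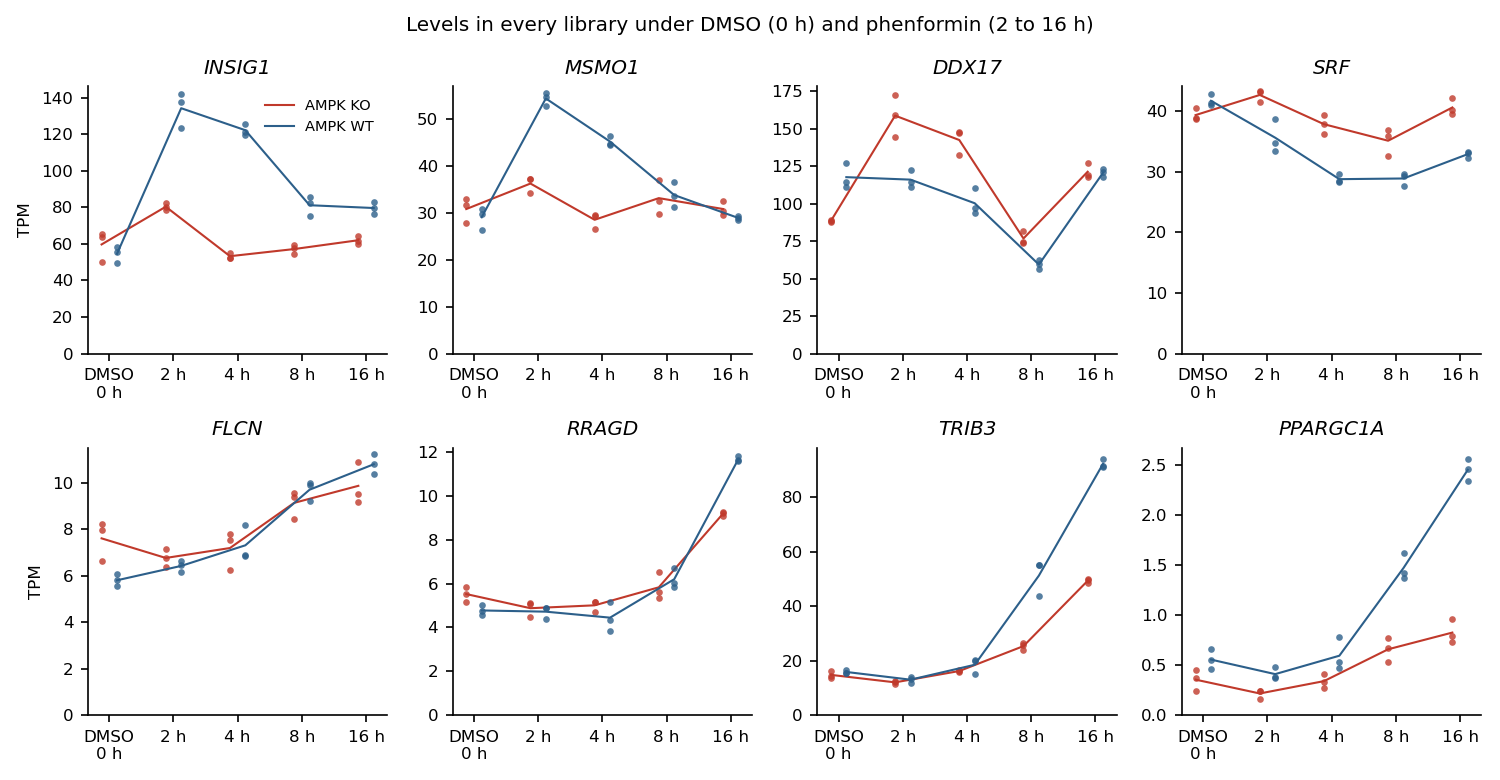
TPM of 8 genes in every library against time, with AMPK KO cells in red and drawn left of AMPK WT cells in blue. Points are libraries, lines join the means of 3, and 0 h is DMSO. INSIG1 and MSMO1 separate by arm at 2 to 4 h, DDX17 and SRF separate early in the other direction, and RRAGD and TRIB3 separate at 8 to 16 h.

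FLCN, FNIP1, FNIP2 and RRAGD rose with 16 h of phenformin in both arms, less so in KO cells. Folliculin and its FNIP partners act on RagC and RagD, small GTPases of the lysosome surface that hold TFEB and TFE3 to mTORC1, and several of these genes are known TFEB targets. At 16 h, 4 of 15 tested members of the folliculin, Rag and Ragulator list had a lower response in KO cells and 1 a higher one, against 10.5% and 3.38% of all genes. Without replicate 2 or 3, 1 of the 15 was lower. RRAGD, which encodes RagD, had 9.22, 9.26 and 9.096 TPM in KO phenformin libraries and 5.86, 5.17 and 5.54 TPM in KO DMSO libraries. In WT cells it had 11.8, 11.6 and 11.6 TPM under phenformin and 4.73, 4.58 and 5.02 TPM under DMSO. The arms did not overlap under phenformin, and the difference of -0.49 ± 0.10 (limma adjusted p = 0.00031) held throughout.

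FLCN, the folliculin gene, differed by -0.36 ± 0.09 at 4 h, by -0.41 ± 0.09 at 8 h and by -0.46 ± 0.09 at 16 h. Its 16 h levels were 10.9, 9.18 and 9.55 TPM in KO cells and 11.2, 10.4 and 10.8 TPM in WT cells, which overlap. The DMSO levels were 6.63, 8.25 and 7.96 TPM in KO cells and 5.54, 5.802 and 6.08 TPM in WT cells, so that the smaller rise of KO cells started from a higher level. FNIP2 had 5.93, 5.495 and 5.34 TPM at 16 h in KO cells and 7.76, 7.59 and 7.998 TPM in WT cells, from overlapping DMSO levels, a difference of -0.44 ± 0.10. FNIP1 differed by -0.29 ± 0.10 (adjusted p = 0.039), a call lost under 16 of 24 alternatives, both scalings among them. LAMTOR4, a Ragulator subunit, had the higher response (0.24 ± 0.06). The FLCN call at 4 h was lost under 8 of 24 alternatives and that at 8 h without replicate 2 or 3 and in the fit of only the groups compared. The FLCN and FNIP2 calls at 16 h were lost without replicate 2 or 3, and that of LAMTOR4 without replicate 2 and in the fit of only the groups compared. TFEB and TFE3 themselves had differences of 0.06 ± 0.13 and 0.08 ± 0.07 at 16 h, which did not pass the test.

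Of 39 tested lysosomal hydrolase and cofactor genes, 16 rose and 13 fell in KO cells by 16 h, and 21 rose and 10 fell in WT cells. At 16 h 9 of the 39 had a lower response in KO cells and 0 a higher one, against 10.5% and 3.38% of all genes, 34 of the 39 differences were below 0, and the median was -0.09 against -0.05 for all genes. Of lysosomal membrane proteins 3 of 25 were lower and 0 higher, and of the V-ATPase proton pump 1 of 16 was lower and 0 higher, shares close to the 10.5% of all genes. Median-ratio scaling left 7 hydrolases lower and 0 higher. Without both replicate 1 DMSO libraries 8 were lower, and 2 were lower without replicate 2 or 3. HEXA, the alpha subunit of the hexosaminidase that degrades gangliosides, had 30.02, 32.6 and 32.6 TPM in KO phenformin libraries and 24.5, 25.5 and 26.3 TPM in KO DMSO libraries, against 41.6, 39.3 and 38.8 TPM under phenformin and 22.3, 25.5 and 24.6 TPM under DMSO in WT cells. Both arms rose and did not overlap at 16 h, and the difference of -0.40 ± 0.07 (limma adjusted p = 2e-05) held throughout.

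The largest hydrolase difference was that of NAGLU. This enzyme of heparan sulfate breakdown had 5.24, 6.18 and 5.83 TPM at 16 h in KO cells and 9.19, 9.08 and 8.66 TPM in WT cells, from 13.3 ± 0.562 TPM in KO cells and 13.6 ± 0.631 TPM in WT cells under DMSO (SD, n = 3). It fell in both arms, further in KO cells, and differed by -0.54 ± 0.12. SMPD1, the acid sphingomyelinase, fell in KO cells, with a log2 change of -0.60, had a WT change of -0.11 that did not pass the test, and differed by -0.49 ± 0.12. The NAGLU call was lost without replicate 3 and the SMPD1 call without replicate 2. Among membrane proteins, LAMP2 differed by -0.22 ± 0.05 and the cholesterol exporter NPC1 by -0.22 ± 0.05, both lost without replicate 2 or 3.

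Of autophagy genes, 8 of 38 had a lower response in KO cells at 16 h and 1 a higher one, against 10.5% and 3.38% of all genes, with a median of -0.09 against -0.05 for all genes. Median-ratio scaling gave 3 lower and 2 higher, and 5 were lower without KO DMSO replicate 3 or WT phenformin replicate 3, 1 without replicate 2 and 2 without replicate 3. WIPI1, which binds the phosphoinositide of forming autophagosomes, had 3.18, 2.99 and 2.71 TPM in KO phenformin libraries and 2.92, 3.13 and 3.27 TPM in KO DMSO libraries. The WT libraries held 4.54, 4.56 and 4.73 TPM under phenformin and 2.605, 3.13 and 2.895 TPM under DMSO. WT cells alone lay above their DMSO range, and the difference of -0.59 ± 0.11 (limma adjusted p = 0.00015) held throughout. The kinase gene ULK2 differed by -0.45 ± 0.09 and the receptor gene OPTN by -0.39 ± 0.11, while ATG4B, a protease of the ATG8 proteins, was higher by 0.30 ± 0.07. Calls of all 3 were lost without replicate 2, and that of OPTN also without replicate 3.

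Of 16 tested transcription factors and modulators of the stress response centred on ATF4, 14 rose and 0 fell in KO cells by 16 h, and 15 rose and 1, ATF5, fell in WT cells. At 8 h 4 had a lower response in KO cells and 0 a higher one, against 2.82% and 1.67% of all genes. At 16 h 4 were lower and 1 was higher, against 10.5% and 3.38% of all genes. The 8 h count was 1 without replicate 2 or 3. At 16 h 2 were lower without KO DMSO replicate 3, 1 without replicate 3 and 2 without replicate 2. The count higher was 3 without KO DMSO replicate 1, and 2 without WT DMSO replicate 2 or WT 991 4 h replicate 1. ATF4 itself, a factor that is largely controlled at translation, had a 16 h difference of 0.11 ± 0.09, and its targets ASNS and SESN2 had 0.22 ± 0.10 and -0.12 ± 0.13, none of which passed the test. CHAC1 had 0.60 ± 0.22 (adjusted p = 0.057).

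TRIB3, a pseudokinase that is induced by ATF4 and CHOP and feeds back on them, separated the arms from 8 h. At 8 h it had 26.4, 25.6 and 23.9 TPM in KO cells and 43.6, 54.96 and 55.004 TPM in WT cells. At 16 h it had 48.3, 49.5 and 50.03 TPM in KO cells and 94.1, 91.5 and 91.1 TPM in WT cells, and the DMSO levels were 16.1, 14.4 and 13.8 TPM in KO cells and 16.5, 15.4 and 15.5 TPM in WT cells. Every WT library was above every KO library at both times, while under DMSO the arms overlapped. The differences were -0.88 ± 0.10 at 8 h (limma adjusted p = 4.5e-10) and -0.79 ± 0.10 at 16 h (adjusted p = 6.5e-09), and both calls held throughout. At 2 and 4 h the differences were -0.01 and -0.07, with adjusted p = 0.99 and 0.77. TRIB3 lies on chromosome 20, from 381306 to 397559 on the plus strand of GRCh38.

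DDIT3, which encodes the pro-death factor CHOP, had 61.1, 53.3 and 52.9 TPM at 8 h in KO cells and 86.7, 87.4 and 88.97 TPM in WT cells, with a difference of -0.49 ± 0.11. At 16 h the difference was -0.32 ± 0.11, at the threshold of the test (adjusted p = 0.05, just under it before rounding) and lost under 16 of 24 alternatives. CEBPG, a partner of ATF4, had 42.6, 46.7 and 44.5 TPM at 16 h in KO cells and 52.9, 52.1 and 53.3 TPM in WT cells, and differed by -0.33 ± 0.06, which was lost without replicate 3. DDIT4, an inhibitor of mTORC1, was of another kind. Its 16 h levels were 229, 233 and 235 TPM in KO cells and 221, 222 and 219.6 TPM in WT cells, and its DMSO levels were 23.7, 34.5 and 38.3 TPM in KO cells and 18.97, 17.7 and 16.2 TPM in WT cells. The difference of -0.74 ± 0.21 thus came with a higher level in KO cells under DMSO and near-equal levels after 16 h. The DDIT3 call at 8 h was lost without replicate 2 or 3, and the DDIT4 call at 16 h also without KO DMSO replicate 3. ATF5 had a log2 change of -0.11 in KO cells that did not pass the test and fell in WT cells (-0.67), and it differed by 0.56 ± 0.10, a call that held throughout.

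A few genes of amino acid synthesis went the other way. Of 17 genes of amino acid synthesis and one-carbon metabolism, 4 had a higher response in KO cells at 16 h and 1 a lower one, against 3.38% and 10.5% of all genes, with a median of 0.12. The count higher was 2 without KO DMSO replicate 1, KO phenformin replicate 2, WT DMSO replicate 2 or WT phenformin replicate 3, and 8 under median-ratio scaling. The count lower was 0 without any of the other 8 KO or WT libraries of the comparison. Without replicate 2 or 3 it was 1 higher and 0 lower. PSPH, the last enzyme of serine synthesis, had 35.4, 35.9 and 33.6 TPM in KO phenformin libraries and 15.3, 13.9 and 13.02 TPM in KO DMSO libraries, against 30.1, 28.8 and 29.8 TPM under phenformin and 16.6, 15.02 and 16.3 TPM under DMSO in WT cells. The arms overlapped under DMSO, and every KO library was above every WT library at 16 h. The difference was 0.41 ± 0.08 (limma adjusted p = 8e-05), which held throughout. PHGDH, the first enzyme, differed by 0.25 ± 0.07, a call lost under quantile normalization, without KO DMSO replicate 1, without both replicate 1 DMSO libraries and without replicate 2 or 3.

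Of 12 amino acid transporters of the stress response, 1 was higher and 3 were lower at 16 h, against 3.38% and 10.5% of all genes. The glycine transporter gene SLC6A9 was higher by 0.65 ± 0.17, with 31.6, 31.6 and 29.8 TPM in KO cells and 26.2, 24.6 and 25.9 TPM in WT cells at 16 h. It started lower in KO cells, with a KO minus WT difference of -0.38 ± 0.12 (log2) under DMSO. The arginine transporter gene SLC7A3 had a lower response (-0.69 ± 0.08), but at 16 h it was near 0 in KO cells, with 0.0213 ± 0.0185 TPM against 2.65 ± 0.31 TPM in WT cells (SD, n = 3). Its KO change was 0.01 and its WT change 0.70. SLC43A1, a transporter of large neutral amino acids, had a lower response (-0.62 ± 0.16). The SLC6A9 and SLC43A1 calls were lost without replicate 2 or 3, and that of SLC43A1 also in the fit of only the groups compared.

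Of 39 tested nuclear genes of complexes II to V and cytochrome c, 26 fell and 6 rose in KO cells by 16 h, and 30 fell and 2 rose in WT cells. Of 36 complex I genes, 25 fell and 2 rose in KO cells, and 31 fell and 2 rose in WT cells. Of the 39, 14 had a higher response in KO cells at 16 h and 0 a lower one, with a median of 0.13, and of the 36 complex I genes 8 were higher and 1 lower, with a median of 0.07. The median for all genes was -0.05, and 3.38% of them were called higher and 10.5% lower. Complexes II to V gave 24 higher and 0 lower under median-ratio scaling, and 7 higher and 1 lower under quantile normalization, and complex I gave 12 and 0, and 8 and 0. Without replicate 2 the counts higher were 6 in complexes II to V and 3 in complex I, and without replicate 3 they were 3 and 1. Mitochondrial ribosomal proteins gave 7 higher and 2 lower of 76.

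ATP5G1, which encodes a copy of the c subunit of ATP synthase, had 149, 167 and 158 TPM in KO phenformin libraries and 253, 286 and 260.5 TPM in KO DMSO libraries. The WT arm had 116, 115 and 114 TPM under phenformin and 234, 255 and 247 TPM under DMSO. The arms overlapped under DMSO and did not at 16 h, and the difference was 0.34 ± 0.06 (limma adjusted p = 0.00013). UQCR10, a small subunit of complex III, had 77.7, 75.1 and 73.7 TPM at 16 h in KO cells and 90.7, 88.8 and 89.2 TPM in WT cells, from 141 ± 5.002 TPM in KO cells and 204 ± 1.18 TPM in WT cells under DMSO (SD, n = 3). KO levels were below WT levels at both points, and the gap was narrower at 16 h, a difference of 0.29 ± 0.05 that held throughout. NDUFA11, of complex I, differed by 0.31 ± 0.07, and NDUFV3 by -0.25 ± 0.08 in the other direction. The ATP5G1 call was lost without replicate 3, the NDUFA11 call without replicate 2 or 3, and the NDUFV3 call under 12 of 24 alternatives, both scalings among them. CYCS, the cytochrome c gene, fell in both arms, with a log2 change of -1.39 in KO cells and -1.46 in WT cells, and its difference did not pass the test.

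**Figure D3:**
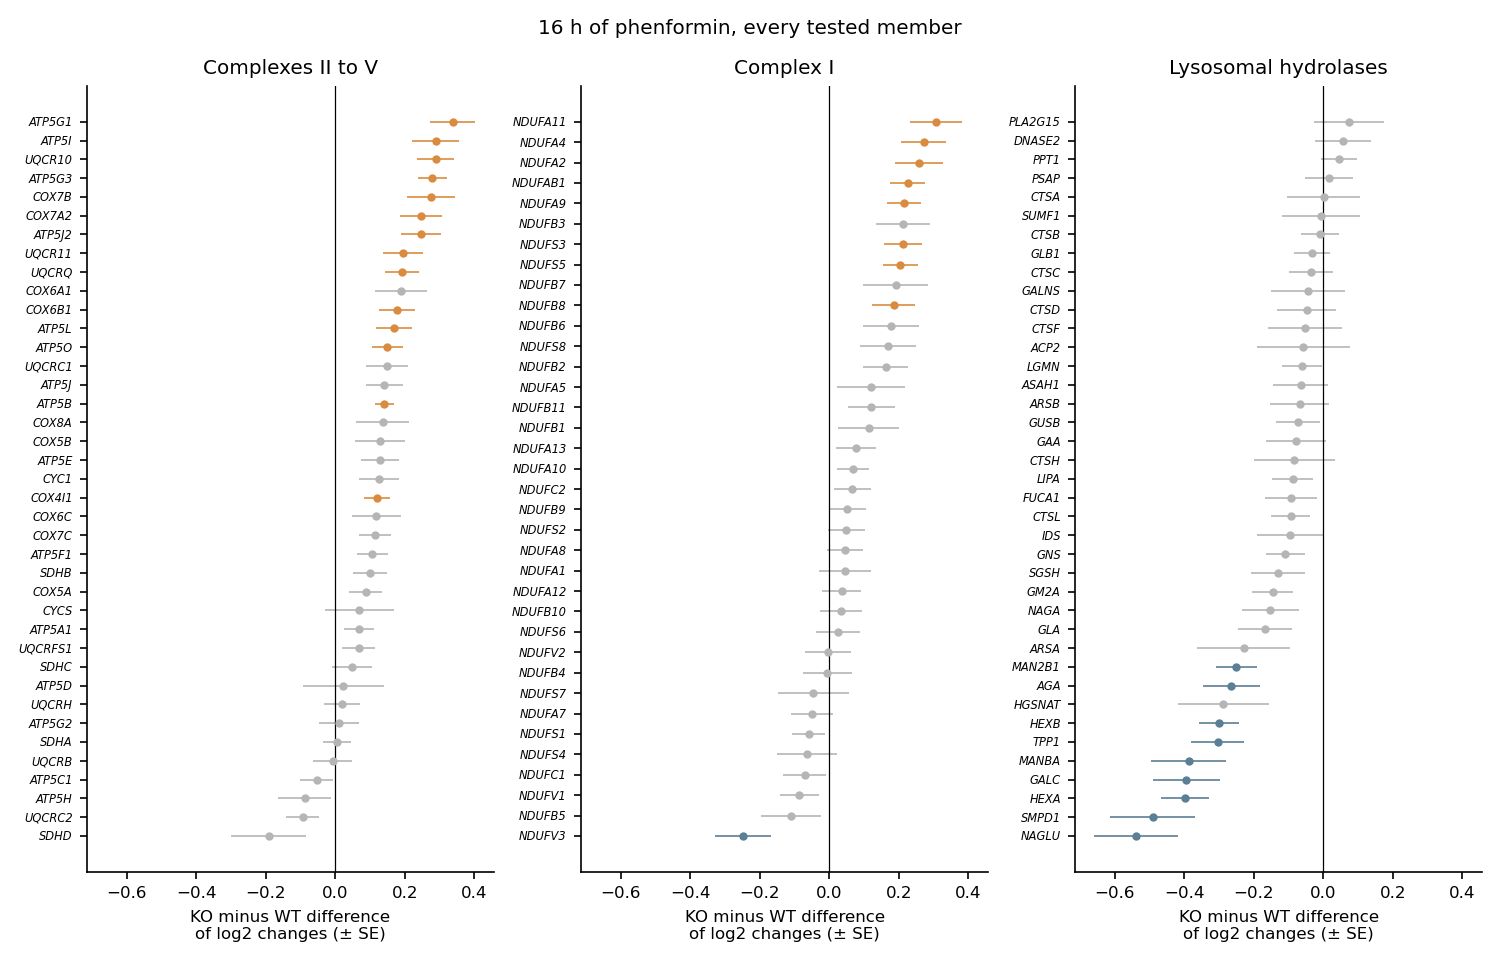
KO minus WT difference of the log2 change at 16 h of phenformin for every tested member of 3 lists, with bars of 1 SE. Orange marks members called higher, blue members called lower and grey members not called. Most respiratory chain members lie right of 0 and most hydrolases left of it, with ATP5G1 and NAGLU at the ends.

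PPARGC1A, which encodes the PGC-1 alpha coactivator of mitochondrial genes, had a lower response in KO cells. It had 0.956, 0.728 and 0.788 TPM in KO phenformin libraries at 16 h and 0.447, 0.244 and 0.37 TPM in KO DMSO libraries. WT cells had 2.46, 2.34 and 2.55 TPM under phenformin and 0.657, 0.456 and 0.549 TPM under DMSO. It rose in both arms, and every WT phenformin library was above every KO one. The differences were -0.38 ± 0.09 at 8 h and -0.72 ± 0.09 at 16 h (limma adjusted p = 5e-09). Levels were low, and on the log2(TPM + 1) scale the fold change of such a gene is understated. ESRRG, which encodes an estrogen-related receptor that PGC-1 alpha binds, differed by -0.59 ± 0.10, with 0.318, 0.356 and 0.439 TPM in KO cells and 1.32, 1.56 and 1.58 TPM in WT cells at 16 h. Both 16 h calls held throughout, and the 8 h call of PPARGC1A was lost with a pseudocount of 0.1, without replicate 2 or 3 and in the fit of only the groups compared. ESRRA had a difference of -0.07 ± 0.10, which did not pass the test. In the list of PGC-1 coactivators, receptors and mitochondrial transcription, 2 of 16 were lower and 1 higher at 16 h, close to the 10.5% and 3.38% of all genes.

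Glucose, hypoxia and redox genes gave mixed counts. Of 22 glycolysis and glucose transport genes, 5 were higher and 2 lower at 16 h, against 3.38% and 10.5% of all genes. Quantile normalization gave 2 higher and 2 lower. The transporter gene SLC2A3 had a lower response (-0.53 ± 0.10), which held throughout, and SLC2A1 was higher by 0.22 ± 0.06. Of 14 hypoxia-inducible factor targets 4 were lower and 0 higher, against the same 10.5% and 3.38%, but 1 was lower under median-ratio scaling. The prolyl hydroxylase gene P4HA1 led them with -0.35 ± 0.08, lost without replicate 2 or 3. HMOX1, the haem oxygenase that NRF2 induces, had 155, 156 and 149 TPM at 16 h in KO cells and 149, 167 and 164 TPM in WT cells, which overlap. Its DMSO levels were 49.5, 54.4 and 51.2 TPM in KO cells and 29.6, 36.4 and 31.7 TPM in WT cells, and the difference of -0.72 ± 0.13 came with that higher start, a call lost without replicate 3. NQO1, another NRF2 target, was higher by 0.38 ± 0.11, lost without replicate 2 or 3 and in the fit of only the groups compared. The SLC2A1 call was lost without WT phenformin replicate 1, without both replicate 1 DMSO libraries and without each replicate number.

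Immediate early genes, which respond within minutes to serum and handling, were higher in 5 of 13 and lower in 1 at 16 h, against 3.38% and 10.5% of all genes. For EGR3 the difference of 2.21 ± 0.32 was set by DMSO, where it had 1.08, 0.209 and 0.252 TPM in KO cells and 11.01, 3.02 and 5.501 TPM in WT cells, while at 16 h it had 0.0773 ± 0.0159 TPM in KO cells and 0.0767 ± 0.00907 TPM in WT cells (SD, n = 3). WT DMSO replicate 1, a library with high histone genes, had the highest level. FOS and FOSB were higher by 0.78 ± 0.20 and 2.15 ± 0.47, lost without replicate 3, and FOS also without replicate 2 or without WT DMSO replicate 1. JUND, a factor of the AP-1 family, differed under phenformin itself, with 55.3, 60.9 and 60.2 TPM in KO cells and 45.01, 45.04 and 44.5 TPM in WT cells at 16 h. Its DMSO levels were 31.7, 28.6 and 29.5 TPM in KO cells and 35.5, 36.3 and 34.4 TPM in WT cells. The difference of 0.62 ± 0.11 held throughout, which the rule that named JUND in part requires. The part of the histone-high DMSO libraries in these calls was tested only by leaving them out.

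Outside the lists, the genes that passed the naming rule are given by time. That rule asks for a call kept without each replicate number, so that part of holding throughout was set by the choice of genes. At 2 h they were DDX17 and FAM13B, both higher in KO cells. DDX17, an RNA helicase of splicing and microRNA processing on chromosome 22 from 38483438 to 38506340, had 132, 147 and 148 TPM in KO phenformin libraries at 4 h and 87.6, 89.2 and 88.5 TPM in KO DMSO libraries. The WT libraries held 97.2, 110.2 and 93.5 TPM under phenformin and 127, 111 and 115 TPM under DMSO. KO cells lay above the WT range under phenformin at 4 h and below it under DMSO. The difference was 0.85 ± 0.09 at 2 h, 0.91 ± 0.09 at 4 h (limma adjusted p = 2.3e-11) and 0.77 ± 0.09 at 8 h, and all 3 calls held throughout. At 16 h KO cells had 121 ± 5.07 TPM and WT cells 121 ± 2.87 TPM (SD, n = 3), with a difference of 0.41 ± 0.09 that was lost without replicate 3. FAM13B differed by 0.55 ± 0.09 at 2 h, which held throughout.

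SRF, the serum response factor, was higher in KO cells at every time. At 4 h it had 36.3, 39.5 and 37.9 TPM in KO phenformin libraries and 40.6, 38.9 and 38.7 TPM in KO DMSO libraries, against 28.3, 29.6 and 28.5 TPM under phenformin and 42.8, 41.04 and 41.4 TPM under DMSO in WT cells. WT cells fell below the other 3 groups, and the difference was 0.47 ± 0.07 (limma adjusted p = 6.3e-06). The 4 and 16 h calls held throughout, and those at 2 and 8 h were lost without replicate 2 or 3. Lower in KO cells at 4 h were HBP1, a repressor of cell cycle genes (-0.59 ± 0.09), the nucleoporin gene NUPL2 (-0.50 ± 0.07) and the mitochondrial protein gene LETMD1 (-0.46 ± 0.08). HBP1 had 7.196, 6.38 and 7.31 TPM in KO cells and 13.03, 10.9 and 11.5 TPM in WT cells at 4 h, from overlapping DMSO levels. The calls of HBP1, NUPL2 and LETMD1 at 4 h held throughout.

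At 8 h the formin gene FMNL2 (0.52 ± 0.09), the kinase gene DAPK1 (0.50 ± 0.09), the actin regulator WDR1 (0.31 ± 0.05) and the peroxiredoxin gene PRDX4 (0.24 ± 0.05) were higher in KO cells. BEX4 (-0.70 ± 0.12), the sulfotransferase gene SULT1C4 (-0.66 ± 0.14), TSSC2 (-0.59 ± 0.09), the small GTPase gene ARFRP1 (-0.56 ± 0.10) and the secreted ligand gene WNT5A (-0.51 ± 0.10) were lower. WNT5A had 5.49, 5.398 and 5.901 TPM in KO cells and 8.54, 7.64 and 7.997 TPM in WT cells at 8 h, with DMSO levels of 4.74, 4.38 and 4.19 TPM in KO cells and 3.86, 4.56 and 4.35 TPM in WT cells that overlap. Its difference was called at every time and was -0.63 at 16 h, with calls lost under 4 alternatives at 2 h and 8 at 4 h. These 9 calls at 8 h held throughout. TSSC2 is uncertain, since reads of near-identical copies may be split between loci.

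At 16 h the lowest differences under that rule were those of GYPC, SLC25A43, FAM150A, AKNA, RHOBTB1 and ULBP1. SLC25A43, a mitochondrial carrier gene on chromosome X from 119399295 to 119454474, had 0.349, 0.335 and 0.421 TPM in KO phenformin libraries and 1.33, 0.707 and 1.18 TPM in KO DMSO libraries. The WT arm had 7.16, 7.71 and 6.94 TPM under phenformin and 4.903, 5.13 and 5.44 TPM under DMSO. It fell in KO cells and rose in WT cells, and the difference was -1.01 ± 0.10 (limma adjusted p = 7.1e-12). AKNA, which encodes a centrosome and microtubule protein, had 10.9, 11.5 and 11.8 TPM at 16 h in KO cells and 18.8, 18.6 and 18.7 TPM in WT cells, with 1.48, 1.17 and 1.09 TPM in KO cells and 1.03, 0.903 and 0.947 TPM in WT cells under DMSO. It rose in both arms, without overlap at 16 h, and differed by -0.86 ± 0.11. ULBP1, a ligand of the NKG2D receptor and a known ATF4 target, had 2.22, 2.11 and 1.67 TPM in KO cells and 5.32, 5.29 and 5.27 TPM in WT cells at 16 h and differed by -0.84 ± 0.13.

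RHOBTB1 had a log2 change of -0.05 in KO cells that did not pass the test and rose in WT cells (0.80), and it differed by -0.85 ± 0.12. The red cell glycophorin C gene GYPC differed by -1.02 ± 0.20. FAM150A differed by -0.98 ± 0.14, with 1.23, 0.792 and 1.04 TPM in KO cells and 1.14, 1.09 and 1.16 TPM in WT cells at 16 h and 4.296, 5.42 and 5.603 TPM in KO cells and 2.12, 2.501 and 2.16 TPM in WT cells under DMSO. Its arms overlapped at 16 h, and the KO cells had started higher. All 6 of these calls held throughout, which the naming rule in part requires.

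Among genes that passed the naming rule, which asks for a call kept without each replicate number, the highest differences at 16 h beside EGR3 and JUND were those of MAGEB2, SERTAD1, HAPLN3 and CYBA. SERTAD1, a regulator of CDK4 and E2F, had 12.1, 10.5 and 11.4 TPM in KO phenformin libraries and 7.28, 7.69 and 6.84 TPM in KO DMSO libraries. WT cells had 7.84, 7.07 and 8.16 TPM under phenformin and 11.7, 9.39 and 9.24 TPM under DMSO. It rose in KO cells and fell in WT cells, a difference of 0.92 ± 0.15 (limma adjusted p = 9.3e-06) that held throughout, as did that of HAPLN3 (0.67 ± 0.12), a hyaluronan link protein gene. MAGEB2 was listed at 0 in all 3 KO phenformin libraries at 16 h and fell in WT cells, with 9.14, 8.05 and 9.26 TPM at 16 h and 21.6, 21.05 and 21.8 TPM under DMSO. CYBA, a subunit of the NADPH oxidase, was likewise near 0 in KO cells, with 0.18 ± 0.0809 TPM against 15.9 ± 0.844 TPM in WT cells at 16 h (SD, n = 3). At 16 h the log2 change of MAGEB2 was -0.22 in KO cells and -1.20 in WT cells, and that of CYBA was 0.14 in KO cells and -0.53 in WT cells. With a pseudocount of 0.1 the MAGEB2 call at 16 h was lost, and its 8 h difference changed sign.

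**Figure D4:**
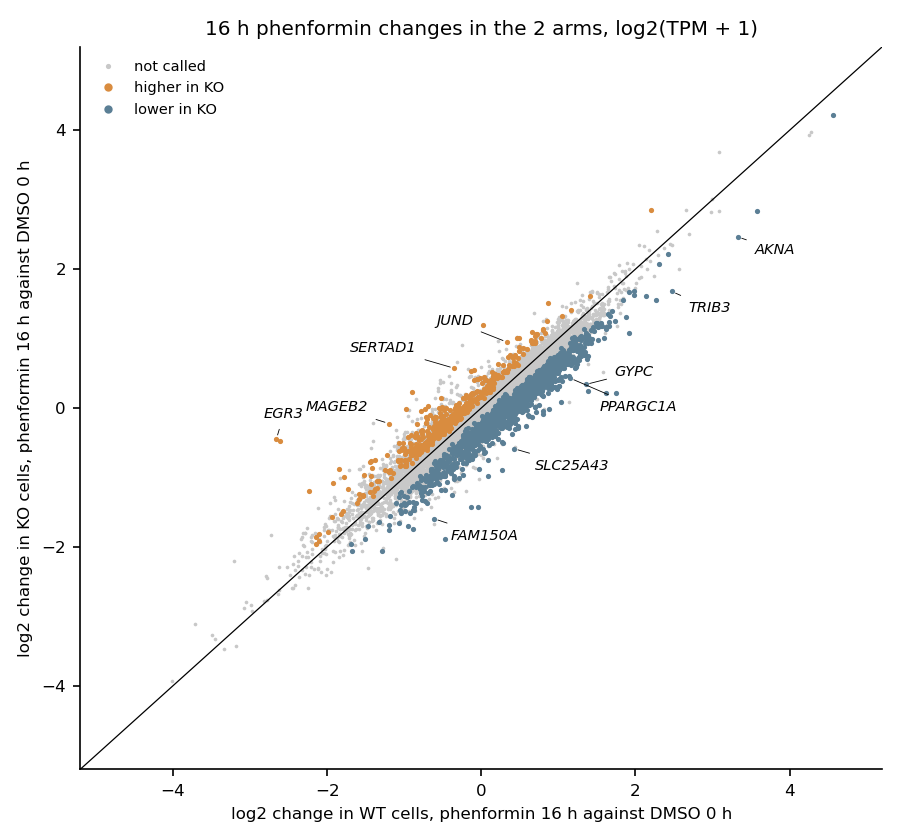
Log2 change at 16 h of phenformin against DMSO at 0 h in KO cells (vertical) and WT cells (horizontal) for the 13617 genes tested, on the log2(TPM + 1) scale. Orange points had a higher response in KO cells (460 genes), blue points a lower one (1430), grey points were not called, and the diagonal marks equal change. Called genes lie on both sides of the diagonal, and the labelled ones are described in the text.

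The later part of the response was also set against the earlier part within each arm, without any DMSO library. The change from 4 to 16 h differed between arms in 877 genes, 6.44% of those tested, 253 higher and 624 lower in KO cells. Median-ratio scaling gave 476 higher and 305 lower, and quantile normalization 317 and 397. The count was 499 without KO phenformin 4 h replicate 3, 560 without WT phenformin 16 h replicate 2 and 534 without WT phenformin 4 h replicate 3. TRIB3 (-0.72), PPARGC1A (-0.67), AKNA (-0.69) and RRAGD (-0.46) were lower by this measure, with adjusted p between 5.3e-08 and 0.0015. INSIG1 was higher (0.83), as was ATF5 (0.61). For FLCN it was -0.10 and did not pass the test.

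Whether phenformin's KO minus WT difference was like that of another compound was asked with rotenone, an unrelated inhibitor of complex I, and with 991. KO and WT cells were also sequenced under CCCP, and phenformin was not compared with it here. Each compound was set against phenformin at the same time, as the KO minus WT difference under phenformin minus that under the other compound, so that DMSO cancels. Doses are not in the labels, and the 3 compounds share their DMSO libraries in the values that follow. At 4 h phenformin and rotenone differed in 17 genes (0.125%), 6 higher and 11 lower, and at 16 h in 1734 genes (12.7%), 478 higher and 1256 lower. Median-ratio scaling gave 9 and 10 at 4 h and 1143 and 626 at 16 h, and quantile normalization gave 657 and 654 at 16 h. Phenformin and 991 differed in 1399 genes (10.3%) at 4 h, 717 higher and 682 lower, and in 1438 (10.6%) at 16 h, 600 higher and 838 lower. For the last, median-ratio scaling gave 868 and 671.

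The small 4 h count against rotenone rested on single libraries. It was 3 without KO phenformin replicate 2, 8 without KO phenformin replicate 3 and 9 without WT phenformin replicate 2. It was 10 without KO rotenone replicate 1, 7 without KO rotenone replicate 3, 9 without WT rotenone replicate 1, 11 without WT rotenone replicate 2 and 7 without WT rotenone replicate 3. It was 1 without replicate 2 in all groups and 0 without replicate 3. INSIG1 was among the 17, with a 4 h difference of -1.30 under phenformin and -0.77 under rotenone, which differ by -0.53 ± 0.11 (limma adjusted p = 0.017). That call was lost without KO phenformin replicate 2, KO rotenone replicate 3 or WT rotenone replicate 1, and without replicate 2 or 3 in all groups. Under 991 it was -1.54, and at 16 h it was -0.48 under phenformin and -1.37 under 991, which differ by 0.90 ± 0.11. DDIT3 was also among the 17, with opposite signs at 4 h. It had -0.31 under phenformin, which did not pass the test, 0.53 under rotenone and 0.83 under 991. Phenformin and rotenone differed by -0.84 ± 0.11 (limma adjusted p = 3.5e-06), a call lost, like all of the 17, without replicate 3 in all groups.

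At 16 h TRIB3, PPARGC1A, AKNA and CEBPG had a KO minus WT difference that passed the test under phenformin and did not pass it under rotenone or 991, and phenformin differed from both compounds when tested. For TRIB3 it was -0.79 under phenformin, 0.19 under rotenone and -0.01 under 991. Phenformin differed from rotenone by -0.98 ± 0.10 (limma adjusted p = 3.6e-12) and from 991 by -0.78 (adjusted p = 5.6e-09). For PPARGC1A the values were -0.72 under phenformin, -0.01 under rotenone and 0.05 under 991, with a phenformin minus rotenone difference of -0.71 ± 0.09. For AKNA they were -0.86, 0.06 and 0.03 in the same order, and for CEBPG -0.33, 0.16 and -0.05. The CEBPG call against 991 was lost without replicate 3. The test of phenformin against rotenone also passed for GYPC, SLC43A1, HAPLN3 and MAGEB2, the last of which was lost with a pseudocount of 0.1. These genes, and TRIB3 and AKNA, are among those picked for the largest differences that passed that same test. Their passing it, also without each replicate number, was thus in part set by the choice of genes.

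For FLCN and RRAGD no difference between phenformin and rotenone or 991 passed the test at 4 or 16 h. For FLCN the 16 h difference was -0.46 under phenformin, -0.33 under rotenone and -0.51 under 991, and phenformin and rotenone differed by -0.13 ± 0.09 (limma adjusted p = 0.38). For RRAGD the 3 values were -0.49, -0.35 and -0.55, with a phenformin minus rotenone difference of -0.14 ± 0.10, and for SRF they were 0.38, 0.46 and 0.35. At 16 h phenformin did not differ from rotenone or 991 by the test in FLCN, RRAGD or SRF, which does not show that the compounds act alike. At 4 h the SRF difference was 0.47 under phenformin and 0.01 under 991, and these differed (limma adjusted p = 4.4e-06). ATP5G1 had 0.34 under phenformin, 0.03 under rotenone and 0.26 under 991, and differed between phenformin and rotenone (adjusted p = 0.00042). NAGLU had -0.54, -0.11 and -0.08, and differed between phenformin and rotenone with an adjusted p = 0.01. The ATP5G1 call between compounds was lost without replicate 2, and that of NAGLU under quantile normalization and without replicate 2 or 3.

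**Figure D5:**
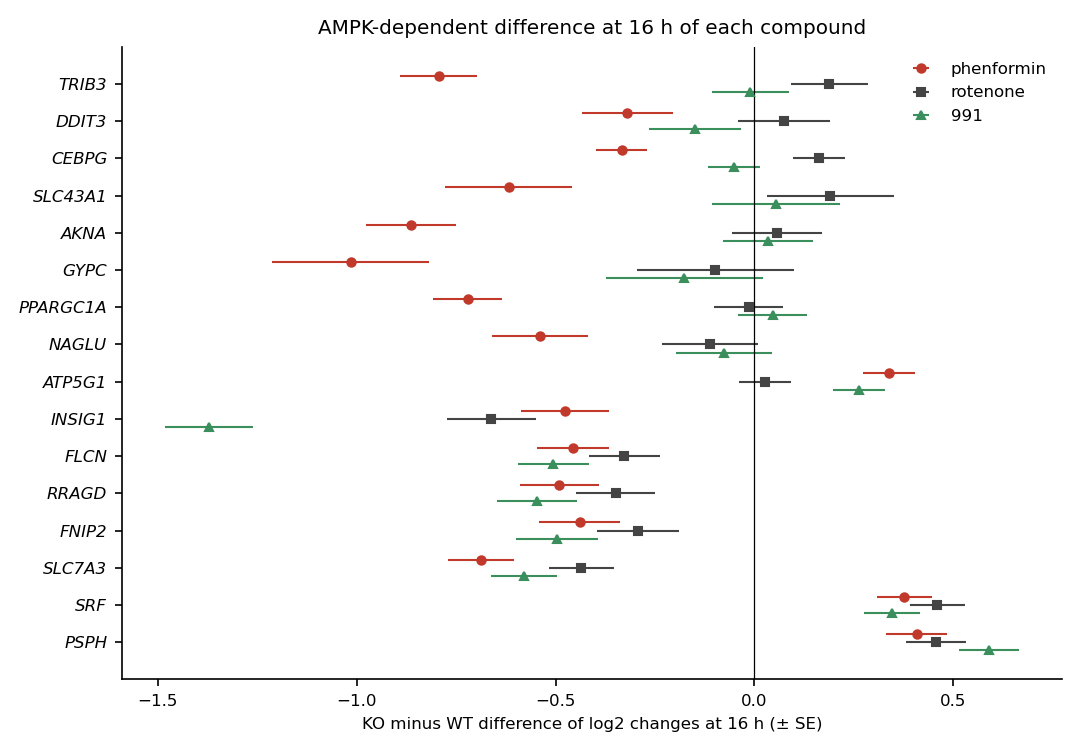
KO minus WT difference of the log2 change at 16 h under phenformin, rotenone and 991 for genes named in the text, each point with a bar of 1 SE from the fit. The 3 compounds share their DMSO libraries. TRIB3 lies at -0.79, 0.19 and -0.01 under the 3 compounds in that order, and FLCN at -0.46, -0.33 and -0.51.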

How the data were processed

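RNA of AMPK KO and WT cells was measured as TPM that the authors deposited in 1 table of 27234 genes, with 1 transcript per gene per the file headers. Per the submitters' processing notes, FastQC, STAR and HOMER were used on GRCh38, and versions are not given in the sources used here. TPM keep no counts, so depth is unknown and no count test was run. Libraries were placed by title and tags.

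A gene was kept when 3 or more libraries of the table reached 1 TPM (13617 genes), and values were taken as log2(TPM + 1). All 102 libraries of the table were fitted together, with 1 mean per group, by limma 3.58.1 in R 4.3.3 (variance trend, 68 residual degrees of freedom). The fit was tested on simulated data. Tests are two-sided, with Benjamini-Hochberg adjustment over all tested genes and calls at an adjusted p under 0.05. The differences of differences were contrasts of that fit, and errors of differences are SE. Members and gene lists were chosen with earlier results of these data known, and lists are described by counts and medians. Named genes were a panel, the most changed called genes per time that reach a mean of 5 TPM and keep their call without each replicate number, the leading called members of each list and the genes that differed most between phenformin and rotenone. Results of a few named genes are not reported here. Alternatives were another scaling, pseudocount, filter, variance model, set of groups, a replicate block and left-out libraries. Coordinates are 1-based on GRCh38.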

Additional observations from a re-analysis of the deposited data

Results flagged for a closer look

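For 11 named genes the change passed the test in opposite directions in KO and WT cells, and so did the difference between them in limma's fit. DDX17 at 4 h rose in KO cells and fell in WT cells, with a difference of 0.91 (log2). SRF at 2 h had 0.34 and FMNL2 at 4 h had 0.35, both up in KO cells and down in WT cells. LETMD1 and IDI1 at 4 h went down in KO cells and up in WT cells, with differences of -0.46 and -1.04. SULT1C4 and ARFRP1 at 8 h did the same, with -0.66 and -0.56. At 16 h SERTAD1 had 0.92, CYBA had 0.67 and BAX, a pro-death BCL2 family member, had 0.23, up in KO cells and down in WT cells, while SLC25A43 had -1.01 in the opposite sense. For CYBA the KO level was near 0 throughout. The F test over the 4 times flagged 2161 genes whose response differed between the arms.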

How the results depend on the processing

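Counts of genes with a KO minus WT difference depended most on the replicates. Without any 1 library they ran from 70 to 379 at 2 h, 204 to 833 at 4 h, 265 to 1121 at 8 h and 1344 to 2722 at 16 h, from 1729 to 2787 for any time, from 499 to 884 for 16 against 4 h, and against rotenone from 3 to 19 at 4 h. Without a replicate number in all groups they ran from 4 to 988 at 2 h, 17 to 829 at 4 h, 51 to 982 at 8 h, 360 to 2715 at 16 h, 318 to 3416 for any time, 92 to 1482 for 16 against 4 h, 0 to 59 and 427 to 2029 against rotenone at 4 and 16 h, and 189 to 1831 and 440 to 1705 against 991 at 4 and 16 h. The fit of only the groups compared gave 30, 97, 185 and 1073 at 2, 4, 8 and 16 h, 880 for any time, 364 for 16 against 4 h, and 740 and 948 against 991 at 4 and 16 h. At 2 h no filter gave 252, quantile normalization 104 and, without both replicate 1 DMSO libraries, 99, a setting chosen after seeing the data that gave 233 at 4 h. The direction depended on which replicate number was left out. Without numbers 1, 2 and 3 the counts were 988, 8 and 4 at 2 h, and 2715, 479 and 360 at 16 h. The cause of these shifts was not tested. Of 226 called differences of named genes, 196 were called under median-ratio scaling and 191 under quantile normalization. The fit of only the groups compared kept 153, and 139 were kept whichever single library was left out. Without a replicate number in all groups 203, 83 and 70 were kept for numbers 1, 2 and 3. With a pseudocount of 0.1, MAGEB2 at 8 h was reversed (-0.55).

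With the replicate block the counts were 249, 676, 872 and 2314 at 2, 4, 8 and 16 h, 2821 for any time and 39 against rotenone at 4 h, and 226 of 226 named calls passed. The labels do not say what the replicate numbers pair. Among 135 same-numbered pairs of libraries, the correlation of deviations ran from -0.0877 to 0.644, with a median of 0.0617 and 51 pairs above 0.1. Some libraries of the same number thus shared deviations, which the main fit, without a block, leaves out. Depth is unknown, so that precision at low TPM rests on the spread between libraries, with 3 in each group.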

Other observations

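Other gene groups gave small counts, to be read against 1.67% of all genes higher and 2.82% lower at 8 h, and 3.38% higher and 10.5% lower at 16 h. Of 40 ribosome biogenesis factors, of which 33 fell in KO cells and 32 in WT cells by 16 h, 5 had a higher response in KO cells at 8 h and 0 a lower one, and 4 and 0 at 16 h. Of 11 cytosolic heat shock genes 2 were higher and 0 lower at 16 h, and 7 were higher under median-ratio scaling. Of 22 chaperones and sensors of the endoplasmic reticulum 0 were higher and 3 lower, and of 19 cytosolic tRNA synthetases 2 were higher and 2 lower, so that the lower counts of both were near the share of all genes. Of 24 mitosis genes 4 were higher and 1 lower, and of 28 DNA replication genes 3 were higher and 3 lower. Median changes of the mitosis genes at 16 h were 0.40 (log2) in KO cells and 0.39 in WT cells.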
